A study of Homo sapiens with 12 samples.

Results

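When 2 siRNAs are given together, the level of each mRNA can be set against the level that would follow from adding the single effects. That 4-way difference, cells given both siRNAs minus siCENPF minus siFOXM1 plus siNeg on the log2 scale, is described here for every gene kept in the table, 14857 of 14862, in all 12 libraries of the series. The cells were parental hTERT-RPE1, a human line of retinal pigment epithelial origin immortalized with telomerase, of wild-type genotype in all 4 groups. Controls received siNeg, the negative siRNA; CENPF was targeted with siCENPF, FOXM1 with siFOXM1, and the last group received siCENPF and siFOXM1 together. Every group had 3 libraries, numbered 1 to 3. The siRNA dose was 20 nM overnight, with collection after 48 hours. The sources used here do not give the sequence of any siRNA, say if a reagent pooled several duplexes, or say if cells given both had that dose of each or in total. The labels do not say that the replicates were separate cultures, so p-values measure only the spread between these samples.

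CENPF encodes a large protein of the nuclear matrix that moves to the outer kinetochore, the structure that ties chromosomes to spindle microtubules, and it recruits dynein regulators there. FOXM1 encodes a forkhead transcription factor that acts with MuvB and B-MYB on genes of G2 and M phase, CENPF among them. An siRNA loaded into Argonaute cleaves its perfect target, and like a miRNA it can also lower other mRNAs that pair with its seed in their 3' UTRs. A control siRNA carries a seed of its own. A comparison of 4 groups therefore has more than 1 way to be non-additive: the control group alone can stand apart while the 3 knockdown groups are equal, cells given 1 single siRNA can stand apart, or the cells given both can stand apart from all others.

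Reads counted in genes ran from 13671250 to 35411230 per library, with the deepest libraries siNeg 3 and siCENPF 3. Of 11 listed markers of mature retinal pigment epithelium with FPKM values, only 2, RPE65 and TYR, were at 0 FPKM in all 12 libraries. That list summed to between 28.8 and 64.3 FPKM. Keratinocyte or carcinoma markers summed to between 0.856 and 2.69 FPKM, blood and endothelial markers to between 0.0309 and 0.204, and neural markers to between 3.58 and 4.70. The median 4-way difference over all genes was 0.00 on the log2 scale.

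Most genes were not distinguishable from additivity, and the departures that passed a test were mostly of 1 kind, a negative 4-way difference with siNeg lowest. Fitted with 4 group means and no further term, limma called 0 of 14857 genes (0% in either direction), while 353 (2.38%) had an unadjusted p under 0.05. The smallest adjusted p was 0.0951. On reads recovered from the deposited CPM, edgeR called 0 of 14150 (329 at an unadjusted p under 0.05) and DESeq2 called 22, of which 21 were negative. Libraries of the same number deviated together, and with the replicate number as a block limma called 125 genes (0.841%), 109 negative (0.734%) and 16 positive (0.108%). By edgeR with the block, 117 genes passed, and all 117 were among the 124 of limma's 125 that edgeR tested, as were the 22 of DESeq2. On FPKM values with the block, an alternative added after seeing the data, 12 genes passed.

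Unless stated otherwise, a gene is termed called where it passed in the fit with the block at an adjusted p under 0.05. That fit was an alternative to the main fit without the block, and it was taken up after the main fit called 0 genes. The size of a called departure ran from 0.29 to 2.02 on the log2 scale, with a median of 0.50. The 4-way difference had the same sign within numbers 1, 2 and 3 in all 125 called genes. Since the calls come from the same 3 values, this follows in part from the selection. Across all genes the 3 per-number values showed little relation to each other, with Pearson's r of 0.04, 0.05 and 0.04 over 14857 genes, which are not independent replicates. The whole 95% interval of the 4-way difference lay within 0.5 of 0 on either side for 8841 genes (59.5%). The count of calls depended on the libraries: it was 64 without siFOXM1 2, 67 without each of the numbers 1 and 2 of the cells given both, and 71 without siFOXM1 3. Without all 4 libraries of number 1 it was 30, and without those of number 3 it was 44.

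The 4-way difference can be read as a second step minus a first step, where the first is the mean of the single siRNA groups minus siNeg and the second is both siRNAs minus that mean. In 123 of the 125 called genes (98.4%) the single siRNAs moved the level in 1 direction and both together moved it by less than the sum. The same held for 8609 of all 14857 genes (57.9%). The calls use the same groups, so the higher share among them follows in part from the selection. For 111 of the 125 the 95% interval of the second step spanned 0, which held for 14119 of all 14857 genes. Adding the single effects on the count scale, in place of the log2 scale, left the sign of the departure the same in 125 of 125.

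**Figure D1:**
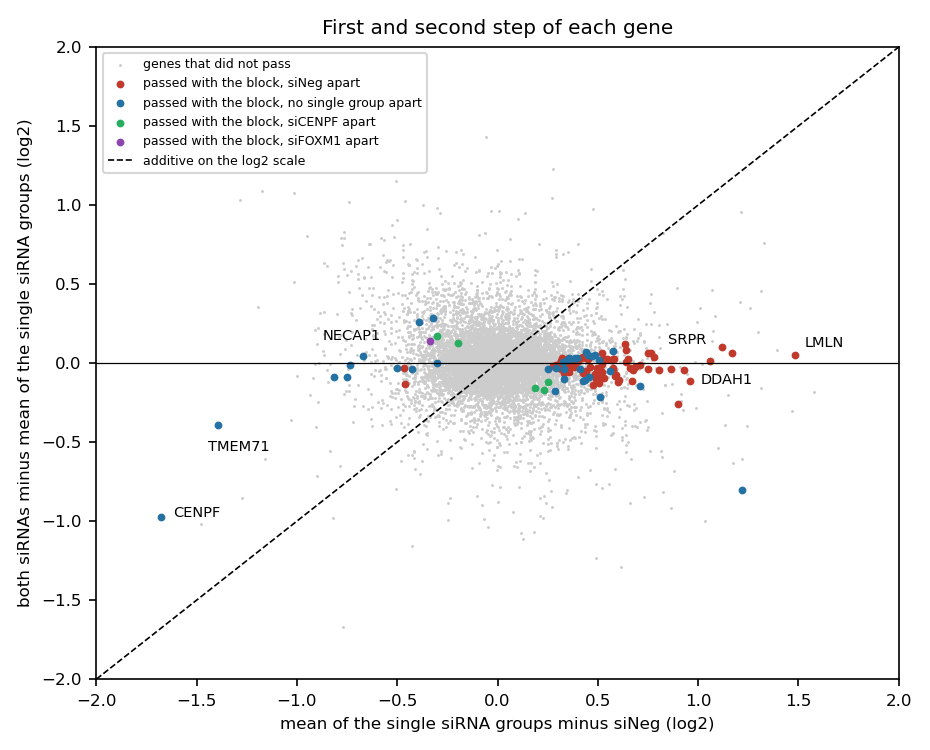
Each point is 1 gene: the x axis is the mean of the single siRNA groups minus siNeg (log2) and the y axis is both siRNAs minus the mean of the single siRNA groups (log2), so the axes share the single siRNA groups. Grey points did not pass, coloured points are the 125 genes that passed with the replicate block, the dashed line marks additivity, and most of the coloured points lie along the line where the second step is 0.

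Each gene was then sorted by which group stood alone: a group is apart where the range of the other 3 group means is at most 0.5 of its own distance from their mean. Among the 125 called genes siNeg was apart in 83 (66.4%), against 1834 (12.3%) of all genes. In 36 (28.8%) no single group was apart, against 68.6% of all genes. siCENPF was apart in 5 (4%), against 7.45%, and siFOXM1 in 1 (0.8%), against 6.98%. The cells given both siRNAs were apart in 0, a pattern that 690 (4.64%) of all genes show. Only the pattern with siNeg apart was thus more frequent among called genes than over all genes. The sorting uses the same group means as the 4-way difference, so these counts describe the called genes and carry no test. At the border, the 3 called genes nearest inside the limit for siNeg had ratios of 0.472 to 0.499, and the 3 nearest outside 0.502 to 0.526.

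The first kind is the departure carried by the control group. Of the 83 called genes in which siNeg was apart, 81 had siNeg lowest and 2 (TMEM245 and HIPK3, named after their values were seen) had it highest. In 70 of the 83 the 3 siNeg libraries lay below all 9 knockdown libraries, which holds for 1.68% of all genes, and in 1 they lay above all 9, against 0.868%. Their median first step was 0.51 and their median second step -0.01, and for 77 of the 83 the interval of the second step lay within 0.3 of 0. A small second step, and siNeg libraries that do not overlap the others, follow in part from the calling and the sorting.

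DDAH1, on chromosome 1 from 85318481 to 85578363 of hg38, encodes the enzyme that degrades asymmetric dimethylarginine, an inhibitor of nitric oxide synthesis. Its normalized counts in libraries 1, 2 and 3 were 3898, 2786 and 3524 with siNeg, and 7539, 6855 and 7263 with siCENPF. They were 7590, 6344 and 6668 with siFOXM1 and 7428, 6518 and 7387 with both. The siNeg libraries were low and did not overlap the 9 others, which overlapped each other. Additivity on the log2 scale would have put the cells given both at 14657, and the observed mean was 7111 ± 514 (SD, n = 3). The 4-way difference was -1.05 (SE 0.08, 95% interval -1.21 to -0.88, limma adjusted p = 9.48e-09 with the block and 0.0951 without).

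SRPR (current symbol SRPRA, chromosome 11, 126262919 to 126269144) encodes the alpha subunit of the receptor that docks the signal recognition particle at the endoplasmic reticulum. In libraries 1 to 3 it stood at 2101, 1607 and 1975 with siNeg, 4159, 3168 and 3767 with siCENPF, 3837, 3237 and 3452 with siFOXM1, and 3710, 3166 and 3597 with both. Number 2 was the lowest in each of the 4 groups, and siNeg was below every knockdown library. Its 4-way difference was -0.97 (SE 0.07, limma adjusted p = 9.48e-09 with the block, 0.184 without), with -1.03, -1.01 and -0.87 within numbers 1 to 3. Both siRNAs against siFOXM1 alone differed by log2 -0.01 (limma adjusted p = 0.993).

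MPRIP, which encodes a protein that targets myosin phosphatase to actin, had normalized counts of 4972, 4961 and 5488 with siNeg and of 8416, 7888 and 8933 with both siRNAs. With siCENPF it stood at 8908, 7858 and 9162, and with siFOXM1 at 8818, 8260 and 8911. The 3 knockdown groups overlapped and siNeg did not reach them. Its 4-way difference of -0.79 (SE 0.07, limma adjusted p = 5.00e-08) came from steps of 0.75 and -0.04.

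IL1B (chromosome 2, 112829751 to 112836903), the cytokine interleukin 1 beta, varied with the replicate number. Its normalized counts were 805, 717 and 361 with siNeg, 2156, 1530 and 734 with siCENPF, 1721, 1323 and 829 with siFOXM1, and 1809, 1629 and 894 with both. Number 3 was lowest in every group, so the siNeg library of number 1 lay above the siCENPF library of number 3. Within each number, siNeg was the lowest of the 4. The 4-way difference was -1.02 (SE 0.12, limma adjusted p = 1.44e-05 with the block and 1.00 without).

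LMLN (chromosome 3, 197960200 to 198043720), which encodes a metallopeptidase related to leishmanolysin, had the most negative 4-way difference among called genes with a mean of at least 100 normalized counts, at -1.43 (SE 0.21, limma adjusted p = 0.000219). It stood at 69.8, 82.9 and 79.3 with siNeg and between 177 and 284 in the 9 knockdown libraries. Its call was lost when the 4 libraries of number 1 were left out (limma adjusted p = 0.0731).

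The other genes that the naming rule took in the negative direction had siNeg apart too. They were KIAA1467 (current symbol FAM234B) at -1.16, the histone H2B gene HIST1H2BK at -1.11, and EIF5A2, a paralog of the translation factor eIF5A, at -0.90. MICB, a stress-induced ligand of the receptor NKG2D, stood at -0.85 and the ubiquitin-conjugating enzyme gene UBE2D1 at -0.78. Their limma adjusted p ranged from 2.62e-05 (EIF5A2) to 0.0133 (UBE2D1). Reads of histone genes are uncertain in their assignment, because many copies are nearly identical. Of the 10 negative genes, 6 (HIST1H2BK, DDAH1, IL1B, SRPR, EIF5A2 and MPRIP) were called in all 15 fits that left out 1 library or 1 number, while UBE2D1 was called in 7. The pseudogene CTD-3092A11.1, with the largest departure of all called genes at -2.02, had means of only 12.1 to 33.6 normalized counts (limma adjusted p = 0.0497).

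**Figure D2:**
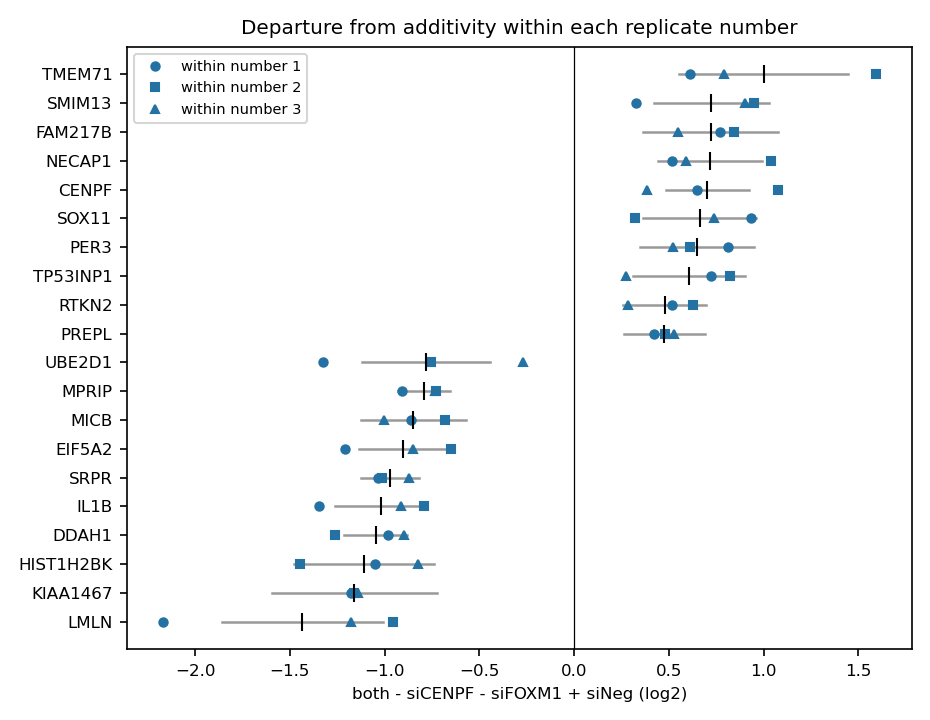
The x axis is the 4-way difference (log2), with 1 row for each of the 20 genes with the largest departures under the naming rule. Circles, squares and triangles are the values within replicate numbers 1, 2 and 3, the vertical tick is the fitted value and the grey line its 95% interval with the block; LMLN spreads from -2.17 to -0.95, while MPRIP spreads from -0.91 to -0.73.

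A short word was found in the 3' UTRs of many called genes with siNeg low and apart. The word, AGCAACC, was taken from earlier work on these data, which reported it for genes higher in all 3 knockdown groups, so its share here is a description and no independent support. It was searched on the transcript strand only, in all 3' UTRs of the GENCODE basic set for hg38. At least 1 match was found in 40 of the 78 searched (51.3%), against 1015 of 11798 genes (8.60%). Negative called genes of the other patterns held it in 5 of 22 (22.7%) and positive called genes in 1 of 16 (6.25%). UTR length differed, with a median longest UTR of 2020.5 bases in the first set and 1389 in all genes. Per 10 kb of UTR the word occurred 2.40 times against 0.423. That rate counts repeated matches within a gene, and LMLN alone held 11 across its UTRs. A match of letters is a description and shows no binding.

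To show what the matches look like, the word stands in capitals in 27 bases of hg38 around it, 5' to 3' on the strand of the gene, in 5 of the genes named above. The positions are chr3:198038835-198038861 (plus strand) for LMLN, whose UTRs held 11 matches, chr1:85321221-85321247 (minus) for DDAH1, chr2:112830014-112830040 (minus) for IL1B, chr11:126263818-126263844 (minus) for SRPR and chr3:170893252-170893278 (minus) for EIF5A2.
LMLN: tgtcctcatcAGCAACCcaaccacctt
DDAH1: aaatgaattaAGCAACCtagaagatac
IL1B: cattctgatgAGCAACCgcttccctat
SRPR: agagtatgtgAGCAACCtgtcttcagt
EIF5A2: agccttcataAGCAACCtcatttcttt
The bases around the word differ between the genes. MPRIP and UBE2D1 held 1 match each. MICB and KIAA1467 held 0, and HIST1H2BK was not searched. SOX11 held the single match among the positive called genes.

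In the second kind, cells given 1 single siRNA stood apart from the other 3 groups. RAB7A (chromosome 3, 128726122 to 128814796), the GTPase of late endosomes and lysosomes, had normalized counts of 4293, 3403 and 4065 with siNeg and of 7161, 5119 and 5800 with siCENPF. They were 3936, 2949 and 3763 with siFOXM1, and 4411, 3608 and 4250 with both. Only the siCENPF libraries were high, and cells given both overlapped siNeg. RAB7A rose with siCENPF by log2 0.61 (limma adjusted p = 1.89e-08 with the block), and the same comparison of both siRNAs with siNeg gave 0.06 (adjusted p = 0.550). Its 4-way difference was -0.40 (SE 0.08, limma adjusted p = 0.00516), and both siRNAs stood below siCENPF by log2 -0.55 (adjusted p = 2.89e-07).

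VKORC1L1, a paralog of the vitamin K epoxide reductase, also had its highest mean with siCENPF. It stood at 1299 ± 143 normalized counts in siNeg, 1726 ± 112 with siCENPF, 1381 ± 107 with siFOXM1 and 1419 ± 106 with both. Its 4-way difference was -0.37 (limma adjusted p = 0.0195). RP11-69I8.3, named after its values were seen, was the other negative gene with siCENPF apart (-0.34, limma adjusted p = 0.0496). In the opposite direction stood RGS4, which encodes a regulator that shortens G protein signalling, and RTKN2. RGS4 had 18514 ± 724 normalized counts in siNeg, 14326 ± 591 with siCENPF, 18169 ± 390 with siFOXM1 and 17633 ± 792 with both. None of the 3 siCENPF libraries of RGS4, at 14761, 14565 and 13653, reached any of the other 9. The 4-way difference was 0.33 for RGS4 (limma adjusted p = 0.00851) and 0.48 for RTKN2 (adjusted p = 0.0217).

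PREPL (chromosome 2, 44316281 to 44361862), which encodes a prolyl endopeptidase-like protein, was the 1 called gene with siFOXM1 apart. It stood at 1826, 1995 and 1811 with siNeg, 1668, 1962 and 1734 with siCENPF, 1380, 1128 and 1207 with siFOXM1, and 1689, 1549 and 1664 with both. The siFOXM1 libraries were below the 9 others, and the libraries given both were below those of siNeg (log2 -0.20, limma adjusted p = 0.0971 with the block). Both siRNAs exceeded siFOXM1 by log2 0.40 (limma adjusted p = 0.00835), and the 4-way difference was 0.48 (SE 0.10, adjusted p = 0.0191). These calls were less stable than those of DDAH1 or SRPR: of 15 leave-out fits RAB7A was called in 14, RGS4 in 10, PREPL in 6, and RTKN2 and VKORC1L1 in 4 each.

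**Figure D3:**
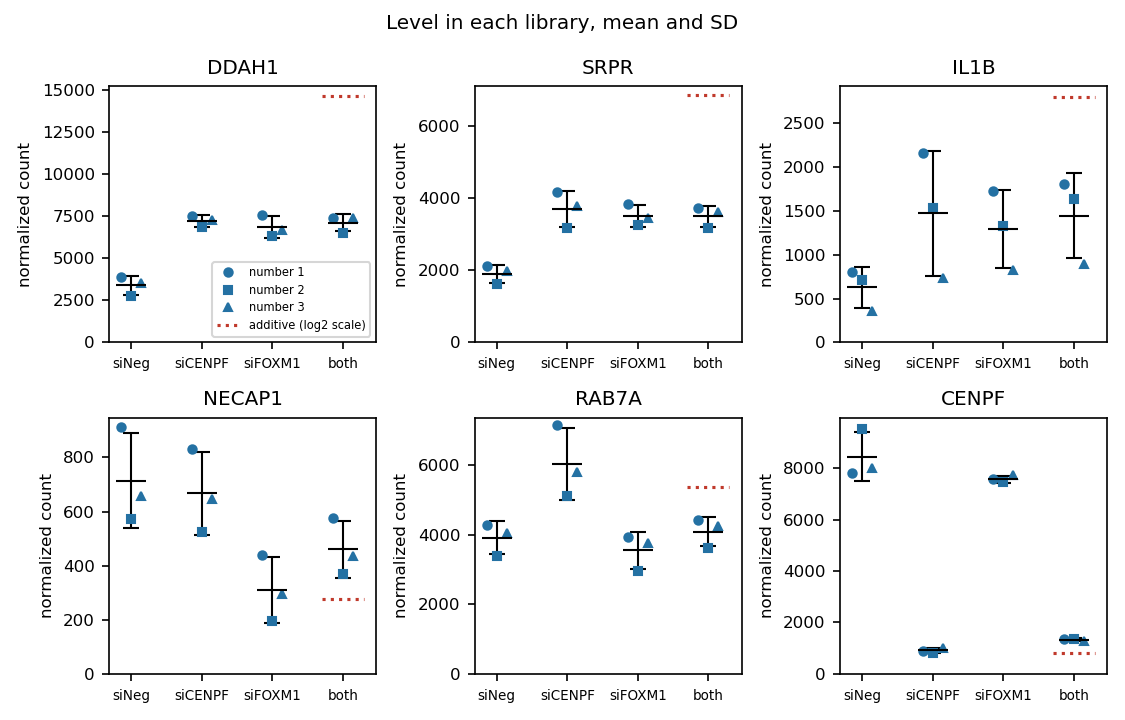
The y axis is the normalized count of 6 genes in each of the 4 groups on the x axis. Symbols are libraries of numbers 1 to 3, bars are the mean and SD, and the dotted line is the level that additivity on the log2 scale gives for both siRNAs; DDAH1, SRPR and IL1B have siNeg low and the knockdown groups level, and RAB7A is high with siCENPF only.

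The third kind, with no single group apart, held 36 called genes. In 29 of the 36 the mean with both siRNAs lay between the means of the single siRNAs, against 47.1% of all genes. The 16 called genes with a positive 4-way difference, 11 of them of this kind, had siNeg highest in 16 of 16, against 4232 of all 14857 genes. Because siNeg enters the 4-way difference with a plus sign, this follows in part from the selection. In 12 of the 16 the mean with both lay between the single siRNAs.

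Both targets were lowered by their siRNAs, and CENPF itself departed from additivity. CENPF (chromosome 1, 214603195 to 214664588) had normalized counts of 7797, 9537 and 7993 with siNeg, 893, 827 and 1017 with siCENPF, 7567, 7448 and 7723 with siFOXM1, and 1360, 1360 and 1284 with both. Every library given both siRNAs was above every siCENPF library and far below siNeg, so 10.8% of the siNeg mean was left with siCENPF alone and 15.8% with both. Cells given both stood log2 0.55 above siCENPF (95% interval 0.40 to 0.71, limma adjusted p = 0.000188 with the block, 0.0619 without). The 4-way difference was 0.70 (SE 0.10, adjusted p = 0.00112 with the block, 0.221 without), and it was called in all 15 leave-out fits with the block. Additivity would have put the cells given both at 819 on the log2 scale, and the observed mean was 1335 ± 44.0 (SD, n = 3).

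FOXM1 went the same way by less, and its 4-way difference of 0.46 (95% interval 0.04 to 0.89) did not pass (limma adjusted p = 0.520 with the block). It stood at 732, 491 and 816 normalized counts with siFOXM1 and at 729, 816 and 822 with both, groups that overlapped. Within numbers 1 to 3 the difference was 0.10, 1.12 and 0.17, so number 2, where the siFOXM1 library was lowest, carried most of it. Of siNeg, 15.2% was left with siFOXM1 and 17.7% with both. How much of each siRNA the cells given both received was not given, and its part in the higher residual CENPF was not tested.

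NECAP1 (chromosome 12, 8082211 to 8097771), which encodes an adaptor of clathrin-coated vesicles, was low with siFOXM1 and less so with both. Its normalized counts were 912, 574 and 657 with siNeg, 831, 525 and 648 with siCENPF, 441, 196 and 294 with siFOXM1, and 576, 370 and 437 with both. Number 1 was the highest in every group, and within each number the cells given both lay between siFOXM1 and siCENPF. The 4-way difference was 0.72 (SE 0.13, limma adjusted p = 0.00508), and both siRNAs exceeded siFOXM1 by log2 0.62 (adjusted p = 0.00184). TMEM71 was lower still with siFOXM1, at 50.0, 53.6 and 62.8 against 288, 353 and 334 with siNeg. With both siRNAs it stood at 66.6, 134 and 90.6, above every siFOXM1 library but with number 2 far from the others (4-way difference 1.00, SE 0.22, limma adjusted p = 0.0191).

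SOX11, a developmental transcription factor, and FAM217B were lowest with siCENPF. SOX11 stood at 565 ± 46.3 normalized counts in siNeg, 273 ± 23.5 with siCENPF, 414 ± 36.7 with siFOXM1 and 319 ± 51.2 with both (4-way difference 0.66, limma adjusted p = 0.0191). FAM217B stood at 447 ± 48.5, 219 ± 47.7, 332 ± 25.1 and 268 ± 46.9 in the same order (0.72, adjusted p = 0.0448). In both genes the level with both siRNAs was between the single siRNAs.

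PER3, a component of the circadian clock, and TP53INP1, a p53-induced gene of cell death and autophagy, had means with both siRNAs nearer to siNeg than either single siRNA. PER3 stood at 350 ± 77.1 normalized counts in siNeg, 296 ± 53.3 with siCENPF, 243 ± 70.9 with siFOXM1 and 318 ± 59.2 with both. TP53INP1 stood at 494 ± 285, 369 ± 169, 386 ± 150 and 460 ± 192, a wide spread because number 2 was high in every group. Their 4-way differences were 0.65 and 0.61 (limma adjusted p = 0.0247 and 0.0382), and SMIM13 stood at 0.72 (adjusted p = 0.0103). NECAP1 was called in 13 of 15 leave-out fits and lost only without the 4 libraries of number 1 or of number 3. Of the other positive calls, TMEM71 and SMIM13 were called in 8, SOX11 in 6, TP53INP1 in 4, PER3 in 3 and FAM217B in 2.

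Among the 25 negative genes with no single group apart, INHBA and SETD7 (both named after their values were seen) stood between the single siRNAs when both were given. INHBA, the beta A subunit of activin and inhibin, had 3901 ± 670 normalized counts in siNeg, 6932 ± 1867 with siCENPF, 4881 ± 1160 with siFOXM1 and 5586 ± 1220 with both. Within each of the 3 numbers the order of the groups was siNeg, siFOXM1, both, siCENPF. Its 4-way difference was -0.61 (SE 0.07, limma adjusted p = 2.57e-05), and both siRNAs stood below siCENPF by log2 -0.30 (adjusted p = 0.00149). SETD7, a lysine methyltransferase, had the reverse order of the single siRNAs. It stood at 3025 ± 351 in siNeg, 3888 ± 688 with siCENPF, 4644 ± 623 with siFOXM1 and 4372 ± 467 with both (4-way difference -0.44, limma adjusted p = 0.00142). With siNeg lowest and a ratio of 0.526, SETD7 was among the genes nearest outside the limit of 0.5 for siNeg apart.

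Cells given both siRNAs stood apart from the mean of the other 3 groups in few genes. Without the block limma called 3 genes lower (0.0202%) and 0 higher (0%): the targets CENPF and FOXM1, and ITFG2, which overlaps FOXM1 on chromosome 12. ITFG2 followed FOXM1, with 379 ± 24.0 normalized counts with siFOXM1 and 389 ± 51.8 with both against 1192 ± 117 in siNeg, and reads of the overlapping genes cannot be told apart where strand was not used. The sources used here do not give the strand setting. All 3 were low with 1 of the single siRNAs too. The 4-way difference was positive for CENPF and did not pass for FOXM1 or ITFG2 (0.18, limma adjusted p = 0.800).

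With the block, 128 genes were called in this contrast (0.862%), 83 lower (0.559%) and 45 higher (0.303%). Of the 128, 5 had the cells given both apart in the sense used above, 93 had no single group apart and 30 had siNeg apart. Over all genes the shares of these patterns were 4.64%, 68.6% and 12.3%. The 5, named here after their values were seen, were BAG1 and ENSG00000262112, lower, and PBX2, FAP and ENSG00000279322, higher. BAG1, a co-chaperone of HSP70, stood at 606, 584 and 719 normalized counts with siNeg, 598, 625 and 602 with siCENPF, 587, 626 and 589 with siFOXM1, and 513, 504 and 490 with both. The 3 libraries given both were below the other 9. BAG1 differed from the mean of the other groups by -0.29 (limma adjusted p = 0.0356 with the block, 0.837 without), and its 4-way difference was -0.20 (95% interval -0.44 to 0.04, adjusted p = 0.689).

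FAP, a serine protease of activated fibroblasts, stood at 1227 ± 515 with both siRNAs against 978 ± 347 to 1068 ± 448 in the other groups. PBX2, a homeodomain cofactor of HOX proteins, stood at 1085 ± 140 against 913 ± 133 to 949 ± 178. Their contrasts were 0.27 and 0.23 (limma adjusted p = 0.0436 and 0.0476), and their 4-way differences were both 0.22 (adjusted p = 0.620 and 0.480). ENSG00000279322 and ENSG00000262112 had contrasts of 0.51 and -0.39 (limma adjusted p = 0.0147 and 0.0299). Their 4-way differences were 0.45 and -0.26 (limma adjusted p = 0.458 and 0.689). Within numbers 1 to 3 these were 0.46, 0.47 and 0.42 for the first gene, and -0.17, -0.24 and -0.37 for the second. For none of the 5 did the 4-way difference pass, so an effect of the pair beyond the single siRNAs was not shown for any of them.

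The opposite contrast was broader. Against the mean of the 3 knockdown groups, siNeg differed in 99 genes without the block (0.666%), 64 lower (0.431%) and 35 higher (0.236%). With the block it differed in 1432 (9.64%), 793 lower (5.34%) and 639 higher (4.3%). Of the 125 genes with a called 4-way difference, 123 were called in this contrast and 27 in that of the cells given both. The 3 contrasts share libraries, so these counts do not support each other.

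Apart from CENPF itself, which the lists leave out, gene lists of the biology of the targets showed no called member. Of 34 FOXM1 targets 0 were called (3 at an unadjusted p under 0.05 by limma with the block, where 8.52% of all genes were), with a median 4-way difference of 0.08 and 28 of 34 above 0, where 49.7% of all genes were below 0. CDKN3, a phosphatase of the cell cycle, had 1157 ± 170 normalized counts in siNeg, 1088 ± 251 with siCENPF, 458 ± 59.1 with siFOXM1 and 547 ± 115 with both (0.35, limma adjusted p = 0.355). CCNF, cyclin F, stood at 0.18 (adjusted p = 0.669), with 784 ± 36.4 with siFOXM1 and 779 ± 25.4 with both. The smallest limma adjusted p with the block in this list was 0.163, for HMMR (0.27, named after its value was seen), which had siCENPF apart.

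S phase and replication genes had 0 of 52 called (13 at an unadjusted p under 0.05 by limma with the block, against the same 8.52%), a median of 0.12 and 44 of 52 above 0. In bulk RNA, fewer cells in a phase of the cycle and less of an mRNA per cell cannot be told apart. Their medians within numbers 1 to 3 were 0.13, 0.10 and 0.13. GINS1, a subunit of the replicative helicase, stood at 0.39 (limma adjusted p = 0.217) and the RecQ helicase gene BLM at 0.35 (adjusted p = 0.335). BLM had normalized counts of 504, 530 and 535 in siNeg and means of 400 ± 44.6 with siCENPF, 427 ± 31.4 with siFOXM1 and 414 ± 5.49 with both, so siNeg was high and the 3 knockdown groups level.

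The kinetochore lists, which do not hold CENPF, likewise had no called member. The outer kinetochore list had 0 of 13 called (4 at an unadjusted p under 0.05 by limma with the block, against 8.52% of all genes), a median of 0.14 and 12 of 13 above 0, and ZWINT, which links KNL1 to the corona, stood at 0.25 (limma adjusted p = 0.208). The inner kinetochore list had 0 of 16 called and a median of 0.02, and CENPU stood at 0.26 (adjusted p = 0.304). Medians were 0.04 for 10 genes of CENP-A loading, 0.06 for 17 genes of the corona and dynein partners, 0.02 for 10 spindle checkpoint genes and 0.07 for 23 genes of cohesin and condensin, with 0 called in each. MAD2L1, of the spindle checkpoint, stood at 0.23 (adjusted p = 0.426). TTK of the same list, named after its value was seen, stood at -0.23 (limma adjusted p = 0.405 with the block). In that list 4 genes were below 0 and 6 above.

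Called members stood in 8 of the 21 lists, 9 genes in all, and 8 of the 9 had the lowest mean in siNeg. Of all 125 called genes 107 had siNeg lowest, and of all 14857 genes 4242 did, so this count is not particular to the lists. Over all genes, 0.734% were called negative, 0.108% were called positive and 49.7% were below 0, the background for each count here. Of 23 extracellular matrix genes 2 were called negative and 20 were below 0 (median -0.08). The type IV collagen gene COL4A1 had 3820 ± 388 normalized counts in siNeg, 5660 ± 316 with siCENPF, 5356 ± 195 with siFOXM1 and 5622 ± 494 with both (4-way difference -0.50, limma adjusted p = 0.00194, called in 14 of 15 leave-out fits). SPARC, a collagen-binding matrix protein, stood at 15576 ± 2016, 20129 ± 1753, 21317 ± 2343 and 21111 ± 964 in the same order (-0.38, adjusted p = 0.00981, called in 9 of 15).

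The same background applies to the next lists: 0.734% of all genes called negative, 0.108% called positive and 49.7% below 0. Of 28 genes of the integrated stress and unfolded protein response, 22 were below 0 (median -0.17) and 1 was called. It was SESN2, a sestrin that restrains mTORC1 and is also a p53 target (-0.55, limma adjusted p = 0.0404, called in 5 of 15 leave-out fits). Of 24 cholesterol synthesis genes, 18 were below 0 (median -0.11) and 1 was called, the sterol methyl oxidase gene MSMO1 (-0.50, adjusted p = 0.0125, called in 9 of 15). The median of the cholesterol list was 0.07 within number 1, against -0.24 and -0.13 within numbers 2 and 3. Of 25 p53 targets 1 was called negative and 1 positive (SESN2 and TP53INP1, median -0.05), and of 36 cilium and Hedgehog genes 1 was called, the kinesin-2 motor gene KIF3B (-0.41, adjusted p = 0.00851, called in 11 of 15).

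The 13 mRNAs encoded by the mitochondrial genome, which also serve as a sign of RNA quality, were all below 0, against 49.7% of all genes. Their median was -0.21, with medians of -0.26, 0.10 and -0.36 within numbers 1 to 3. Over all genes 0.734% were called negative. MT-ATP8 was the 1 called (-0.46, limma adjusted p = 0.00585, called in 12 of 15 leave-out fits), with 2836 ± 429 normalized counts in siNeg, 3399 ± 505 with siCENPF, 3506 ± 198 with siFOXM1 and 3088 ± 608 with both. Whether RNA quality has a part in other departures was not tested. Medians were -0.04 for 15 entries of DREAM and MuvB subunits (RBL1 has 2 entries in the table), -0.03 for 33 interferon-stimulated genes, -0.03 for 18 YAP/TAZ targets, -0.06 for 20 immediate early genes and -0.03 for 13 genes of small RNA silencing, with 0 called in each. Of 18 secreted cytokine genes 1 was called (IL1B; median -0.05), and of 12 replication-dependent histone genes 1 (HIST1H2BK; median 0.01).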

How the data were processed

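PolyA RNA of 12 libraries was analysed from the deposited tables, 3 libraries for each of 4 groups, and groups and numbers came from the sample labels. The members, gene lists and tests were chosen with earlier results of these data known. Tools named in the submitters' processing notes are Trimmomatic, TopHat, bcl2fastq and edgeR, and the build is hg38; the sources used here give no versions. The authors deposited a signal on a count scale (normalized counts), FPKM, and 3 edgeR tables with CPM, p-values, log2 fold changes and a score from a likelihood ratio test, per the file headers. Their fold changes and p-values were not used. Whole reads were recovered from CPM for 100% of the values, within 0.01 reads, for the count tests.

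A gene was kept if 3 or more libraries had 10 or more normalized counts of it. The main test was limma 3.58.1 (R 4.3.3; trend, robust) on log2(normalized count + 1), with 4 group means, two-sided, adjusted by Benjamini-Hochberg over 14857 genes at a threshold of 0.05. A difference on this scale understates the change of low genes. Deviations from the group means correlated at 0.272 to 0.639 (median 0.536) in the 18 pairs of libraries that share a number in the labels, and at -0.510 to 0.0248 in the 36 other pairs, so the numbers pair the samples. The replicate number had been set as an alternative. Since the main fit without the block called 0 genes, results are given with the replicate number as a block. This choice was made after the outcome of the main fit was seen, so the calls and p-values with the block depend on it. The median SE was 0.21 without and 0.14 with the block. The same script was run on simulated data in which only the cells given both siRNAs departed. That run checked the code and is no support for the calls made here.

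Named genes were the targets and the 10 largest departures in each direction (filled from the fit with the block). These had a mean of at least 100 and the same sign within all 3 numbers. Up to 5 per pattern were added, and up to 2 per list by the smallest p without the block. Other members of a list can therefore have a smaller p with the block. Weakly expressed marker genes and most uncalled list members are left out. Alternatives were edgeR 4.0.16 and DESeq2 1.42.0 on recovered reads, other pseudocounts, filters, scalings, the FPKM table and left-out libraries.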

Additional observations from a re-analysis of the deposited data

How the results depend on the processing

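Without the block, the counts of called genes were 0 for the 4-way difference, 99 for siNeg against the 3 knockdown groups and 3 for both siRNAs against the other 3 groups. These stayed within 1.5 times under other pseudocounts, filters, scalings, the FPKM table, edgeR and limma without robust moderation. With the replicate block they were 125, 1432 and 128, and with the block by edgeR on recovered reads 117, 1544 and 132. DESeq2 called 22, 266 and 22. Added after seeing the data, the block with a pseudocount of 5 gave 127, 1426 and 129, and the block with FPKM values gave 12, 806 and 20. Fitted on only 3 per-number values, the counts paired by number were 0, 0 and 0 by limma (143, 1829 and 169 at an unadjusted p under 0.05), a fit with fewer degrees of freedom. The cause of the lower counts on FPKM values and of the gap between DESeq2 and edgeR was not tested.

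Leaving out 1 library or 1 number gave 0 to 3, 2 to 124 and 1 to 6 called genes without the block, and 30 to 148, 620 to 1713 and 43 to 216 with it (the latter added after seeing the data). The highest of the first range, 3, came without number 2. The siNeg count fell to 60, 55 and 50 without siNeg 1, 2 and 3, to 11 without number 1 and to 2 without number 3. The count for both siRNAs was 5 without library 2 of that group.

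The 4-way difference of 2 uncalled genes changed sign. In fits without the block, FAP stood at -0.11 without siNeg 2 and at -0.10 without library 2 of the cells given both (up to 0.54 in the others), while with the block it ran from 0.05 to 0.45. ITFG2 stood at -0.038 without number 2, with or without the block (up to 0.36). Of 31 named genes called with the block, 8 were called in all 15 fits that left out a library or a number. With 3 libraries a group and a median SE of 0.14 with the block, the smallest departure called was 0.29, and smaller ones may have been missed.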
